A study of Mus musculus with 10 samples.

Results

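The regions described here are the autosomal H3K27me3 peaks of CD71+Ter119high erythroblasts from wild-type (WT) and Mtf2-null mouse fetal liver (FL). All peaks of the WT list and of the Mtf2-null list on the 19 autosomes were taken, and each was called WT-only, Mtf2-null-only or shared according to whether it had at least 1 base in common with a peak of the other list. This gave 9585 regions, 4456 from WT and 5129 from Mtf2-null cells, of the 50907 peaks in the 6 lists of the series. Protein-coding genes were grouped in the same way by whether a peak of either list lay within 5 kb of a transcription start site (TSS).

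The study asked how loss of Mtf2 changes Polycomb repression while FL progenitors mature into red cells. Both groups were e14.5 embryos with a C57Bl/6 strain background, and FL cells were sorted by flow cytometry for high surface Ter119 together with CD71, the transferrin receptor. The WT embryos were Pcl2+/+. The null embryos were Pcl2 -/- (Pcl2 is the older name of Mtf2), from a line made with gene-targeted ES cells, and lacked the gene in every tissue, so the mutation was not limited to red cells. Chromatin of 500000 cells per sample was precipitated with an antibody against H3K27me3 and, as the control, with IgG.

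Polycomb repressive complex 2 (PRC2) places methyl groups on lysine 27 of histone H3, and the trimethylated form, H3K27me3, is a hallmark of silenced developmental genes. Mtf2 is an accessory subunit of PRC2 that binds unmethylated CpG-rich DNA and helps to bring the complex to CpG islands. In blood-forming tissue the mark typically lies over regulators of other lineages, while genes of the maturing red cell are free of it.

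There was 1 H3K27me3 library and 1 IgG library per genotype, so no difference below has a replicate check and no test between genotypes was made. The WT H3K27me3 library held 30054186 unique tags and the Mtf2-null library 67169672, which is 2.23 times as many, and the difference in depth cannot be told apart from the genotype. A region was called a peak by MACS at a p-value of up to 1e-05 over the IgG control. Its score is 10 times the negative log10 of that p-value. A gene or region without a peak passed no such threshold, which is not the same as a measured level of 0. Intervals in parentheses are 95% Wilson intervals and cover counting error only. PCR copies and neighbouring peaks are not independent, so the true error is larger. A peak list cannot show that the targeted gene was deleted, and Mtf2 itself had no peak within 5 kb of a TSS in either list.

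The sequences below show the DNA at the summits of high-scoring peaks of each group. Each is the plus strand of 300 bases around a summit in the NCBIM37 (mm9) mouse genome, in lower case with every CG dinucleotide in capitals. The first set comes from high-scoring WT-only peaks at CpG-rich TSS: Unc45b, a myosin chaperone, Clcf1, a cytokine of the interleukin 6 family, and Pou3f3, a POU homeobox factor of the developing brain. The summits lay 2.28 kb, 0.194 kb and 0.635 kb downstream of the nearest TSS, and none of the 3 stretches overlapped an annotated UTR.
Unc45b, chr11:82744594-82744893: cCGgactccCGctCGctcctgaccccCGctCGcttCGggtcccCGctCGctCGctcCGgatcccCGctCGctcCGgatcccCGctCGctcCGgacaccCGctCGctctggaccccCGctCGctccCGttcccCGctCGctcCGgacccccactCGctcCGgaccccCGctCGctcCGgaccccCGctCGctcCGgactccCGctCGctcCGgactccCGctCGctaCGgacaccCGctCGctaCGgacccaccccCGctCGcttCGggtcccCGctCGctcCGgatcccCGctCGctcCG
Clcf1, chr19:4214638-4214937: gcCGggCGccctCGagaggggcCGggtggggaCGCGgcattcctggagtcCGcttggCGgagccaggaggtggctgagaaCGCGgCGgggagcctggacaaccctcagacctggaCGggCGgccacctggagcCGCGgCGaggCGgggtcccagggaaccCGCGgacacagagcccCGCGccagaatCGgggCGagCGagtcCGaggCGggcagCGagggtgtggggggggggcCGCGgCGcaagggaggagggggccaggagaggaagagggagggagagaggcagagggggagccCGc
Pou3f3, chr1:42754476-42754775: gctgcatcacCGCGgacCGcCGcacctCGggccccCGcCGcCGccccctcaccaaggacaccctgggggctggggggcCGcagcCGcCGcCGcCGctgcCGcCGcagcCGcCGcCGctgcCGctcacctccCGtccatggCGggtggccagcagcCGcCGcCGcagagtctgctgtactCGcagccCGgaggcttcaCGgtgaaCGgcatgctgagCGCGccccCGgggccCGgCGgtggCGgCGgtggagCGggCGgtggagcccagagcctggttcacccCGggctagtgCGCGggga

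The 300 bases held 50 CG dinucleotides at Unc45b, 31 at Clcf1 and 40 at Pou3f3. The Unc45b stretch consisted of a short CG-containing unit repeated in tandem, and its median 24-base word was present in the genome at 7 copies, against 1 copy at Clcf1 and at Pou3f3.

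The second set comes from the 3 highest-scoring Mtf2-null-only peaks. All 3 were intergenic, 215 kb upstream of Gm8730, 56.4 kb upstream of Cdc42bpa and 1434 kb downstream of Gm9008.
Near Gm8730, chr8:105604790-105605089: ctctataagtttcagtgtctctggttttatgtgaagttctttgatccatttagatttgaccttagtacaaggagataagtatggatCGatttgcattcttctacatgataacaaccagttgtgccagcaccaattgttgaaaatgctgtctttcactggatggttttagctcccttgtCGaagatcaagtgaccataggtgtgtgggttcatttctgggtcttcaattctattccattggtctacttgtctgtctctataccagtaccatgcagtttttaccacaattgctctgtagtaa
Near Cdc42bpa, chr1:181834074-181834373: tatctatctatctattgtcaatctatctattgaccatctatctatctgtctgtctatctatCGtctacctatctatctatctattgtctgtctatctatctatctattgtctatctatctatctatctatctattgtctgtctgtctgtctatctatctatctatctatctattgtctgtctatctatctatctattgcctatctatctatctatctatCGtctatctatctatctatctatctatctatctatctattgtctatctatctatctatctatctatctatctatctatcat
Near Gm9008, chr6:75013984-75014283: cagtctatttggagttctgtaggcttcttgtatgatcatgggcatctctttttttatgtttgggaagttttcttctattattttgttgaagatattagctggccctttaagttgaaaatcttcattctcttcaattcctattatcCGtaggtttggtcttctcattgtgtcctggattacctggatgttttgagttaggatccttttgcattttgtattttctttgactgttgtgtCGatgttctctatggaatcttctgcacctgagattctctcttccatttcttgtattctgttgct

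Each of these stretches held 2 CG dinucleotides. The sequence near Cdc42bpa was a tandem repeat of a 4-base unit. Words of 24 bases taken from the sequence near Gm8730 occurred in the genome at a median of 9994 copies, and those from the sequence near Gm9008 at a median of 3738 copies.

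The third set comes from the WT summits of the 2 highest-scoring shared peaks, near Josd2, which encodes a deubiquitinating enzyme, and 9.18 kb upstream of Otx2, a homeobox factor of the forebrain and eye.
Near Josd2, chr7:51730420-51730719: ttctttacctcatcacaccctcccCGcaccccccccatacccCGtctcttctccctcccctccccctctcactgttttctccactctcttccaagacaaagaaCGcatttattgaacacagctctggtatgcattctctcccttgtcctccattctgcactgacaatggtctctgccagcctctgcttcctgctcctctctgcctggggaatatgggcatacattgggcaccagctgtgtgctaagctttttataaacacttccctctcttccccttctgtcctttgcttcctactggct
Near Otx2, chr14:49296350-49296649: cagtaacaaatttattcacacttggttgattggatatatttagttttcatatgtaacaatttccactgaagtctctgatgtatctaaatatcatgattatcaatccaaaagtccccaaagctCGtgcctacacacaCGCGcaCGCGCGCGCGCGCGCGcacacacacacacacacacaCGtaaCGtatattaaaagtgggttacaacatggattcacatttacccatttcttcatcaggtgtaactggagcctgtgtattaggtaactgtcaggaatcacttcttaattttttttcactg

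These stretches held 3 and 13 CG dinucleotides, the latter mostly in 1 run of alternating C and G, and both were present at a median of 1 copy. The stretch near Josd2 lies at the edge of the WT peak and ends before the Mtf2-null peak of the pair, which starts at base 51731171.

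The peak sets of the 2 genotypes were nearly separate. Of the 4456 WT peaks, 4429 (99.4%, 99.1 to 99.6) had no base in common with a Mtf2-null peak. Of the 5129 Mtf2-null peaks, 5102 (99.5%, 99.2 to 99.6) had none in common with a WT peak. The remaining 27 pairs were shared, which is 0.606% of WT and 0.526% of Mtf2-null peaks. The overlap of 2 lists of these lengths placed at random was not computed. Whether 27 pairs exceed it was not tested. WT peaks covered 5.36 Mb (0.217% of the autosomes) and Mtf2-null peaks 9.50 Mb (0.384%), and they took up 0.725% and 0.904% of the unique tags. Which list was longer depended on the threshold. The ratio of Mtf2-null to WT peaks was 1.15 as deposited, 3.93 with an FDR of at most 5% in both lists, 0.328 with a score of at least 100 and 0.259 with a fold enrichment of at least 8.

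CpG content set the groups apart. A summit was called CpG island-like if its surrounding 1 kb reached 50% GC and a CpG ratio, observed over expected, of 0.6. By this measure 2115 WT-only peaks (47.8%, 46.3 to 49.2) were CpG island-like. Among the 5102 Mtf2-null-only peaks there were 0, and a count of 0 here allows at most 0.0588%. Among peaks with a score of at least 100 in both lists the WT-only share was 85.2%. For scale, 0.65% of all 1 kb windows of the autosomes and 39.8% of all protein-coding TSS met the definition. The median GC content was 57.4% at WT-only summits, 38.7% at Mtf2-null-only summits and 41.7% over the genome windows. The median WT-only summit had 48 CpG dinucleotides in 1 kb, against 6 at the median Mtf2-null-only summit. The Mtf2-null-only summits were thus poorer in GC than the median window of the genome.

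**Figure D1:**
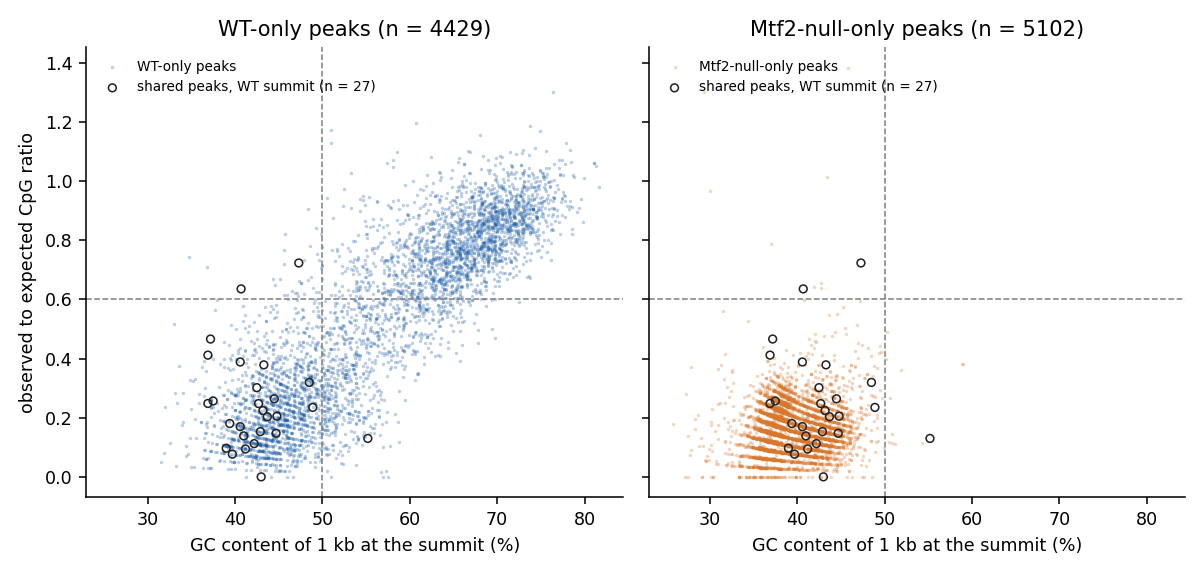
GC content (%, x axis) against the observed over expected CpG ratio (y axis) of the 1 kb around each peak summit, for WT-only, Mtf2-null-only and shared peaks, with the limits of the CpG island-like definition drawn. WT-only peaks spread from CpG-poor to CpG-rich DNA and 2115 of them pass both limits, whereas 0 Mtf2-null-only and 0 shared peaks do.

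The position relative to genes differed as well. In WT cells 2227 of the WT-only peaks (50.3%, 48.8 to 51.8) reached within 1 kb of a protein-coding TSS, and in Mtf2-null cells 52 of the Mtf2-null-only peaks did (1.02%, 0.778 to 1.33). These windows make up 3.08% of autosomal bases. A peak counted if any of its bases reached a window, so this share of bases is not a like measure. With a score of at least 100 in both lists the shares were 80.9% and 0.232%. Summits in exons accounted for 5.08% of WT-only and 0.0784% of Mtf2-null-only peaks. Intronic summits were closer in share, with 16.9% and 20.5%, while intergenic summits made up 24% and 76.1%. The median distance from the summit to a TSS was 1.53 kb for WT-only and 84.2 kb for Mtf2-null-only peaks. In the latter group 2369 summits (46.4%) were over 100 kb and 700 (13.7%) over 500 kb from any TSS, against 7.68% and 1.47% of WT-only summits.

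The balance of the lists varied between chromosomes. Chromosome 11, with 53.2 TSS per Mb the densest autosome, had 365 WT and 171 Mtf2-null peaks, a ratio of 0.468. Chromosome 3, with 20.4 TSS per Mb, had 204 and 411, a ratio of 2.01, the highest among the autosomes. The median WT-only summit had 40 TSS within 500 kb and the median Mtf2-null-only summit 11.

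The sequences of the Mtf2-null-only summits were mostly not unique in the genome. For each summit, every 24-base word of the surrounding 300 bases was counted on both strands of all chromosomes and the median count taken, and 4774 autosomal positions spaced 500 kb apart served for comparison. This count was added after the printed sequences had been seen. The median word was present at 1 copy at 3882 WT-only summits (87.6%, 86.6 to 88.6), at 4010 grid positions (84.0%) and at 531 Mtf2-null-only summits (10.4%, 9.60 to 11.3). It was present at 100 copies or more at 199 WT-only summits (4.49%), 303 grid positions (6.35%) and 3348 Mtf2-null-only summits (65.6%, 64.3 to 66.9). The median over the group was 1 copy for WT-only summits and 649.5 copies for Mtf2-null-only summits. Repeat families were not annotated in the reference used here. How the authors placed reads with several matching positions is not given in the sources used here, and the part of read placement in the position of these peaks was not tested.

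High copy number was not particular to the Mtf2-null erythroblast list. Summits at 100 copies or more made up 59.7% of the 4695 autosomal H3K27me3 peaks of WT CD71+Ter119-/lo pro-erythroblasts and 10.1% of the 1331 peaks of their Mtf2-null counterparts. In the lists of Mtf2 itself they made up 84.2% of 4771 peaks in WT erythroblasts and 80.3% of 25805 peaks in WT pro-erythroblasts. In H3K27me3, the WT list had the lower share in erythroblasts and the Mtf2-null list the lower share in pro-erythroblasts, so the direction between genotypes was opposite at the 2 stages.

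**Figure D2:**
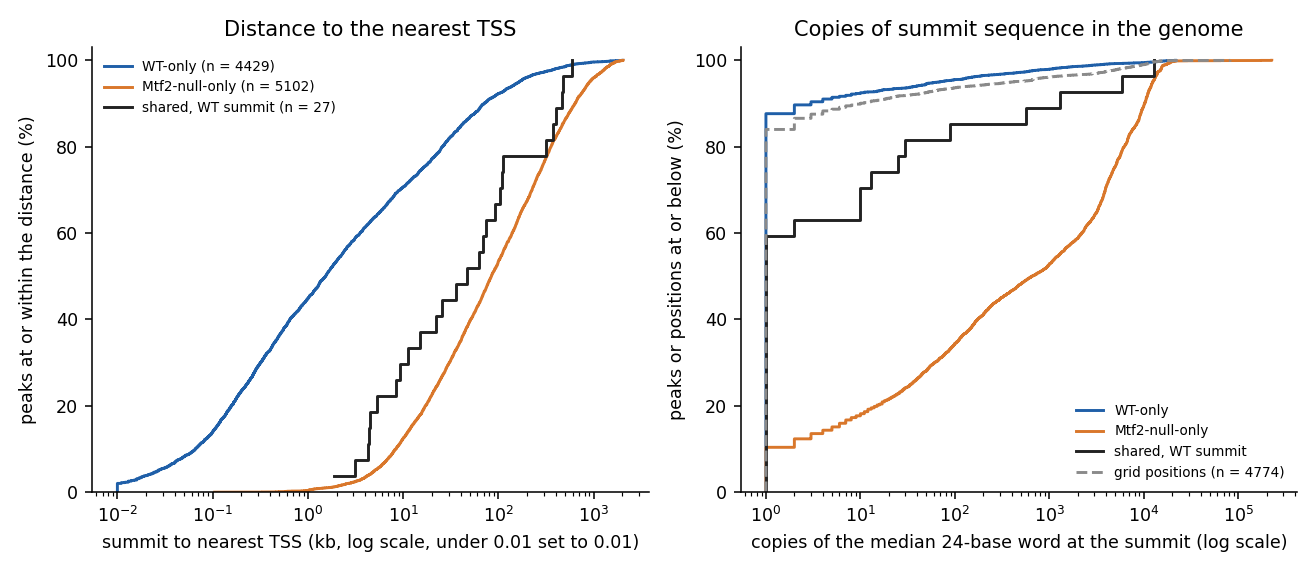
Cumulative share of peaks (%, y axes) by distance of the summit to the nearest protein-coding TSS (left, kb on a log scale) and by the genome copies of the median 24-base word of the 300 bases at the summit (right, log scale), for WT-only, Mtf2-null-only and shared peaks and, on the right, for 4774 grid positions. The Mtf2-null-only curve lies to the right of the WT-only curve in both panels, with medians of 84.2 against 1.53 kb and of 649.5 against 1 copy.

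Mtf2-null-only peaks were longer but less dense in tags. Their median length was 1395 bp, against 1058 bp for WT-only peaks, and 827 of them (16.2%) were over 3 kb long, against 69 (1.56%). The median tag density, in RPKM (tags per kb of peak, scaled to the unique tags of the library), was 0.887 in Mtf2-null-only and 1.19 in WT-only peaks. All 4429 WT-only peaks were denser than the sparsest Mtf2-null-only peak, and 4428 were denser than the median one. The lowest density that was called at all was 0.688 in the Mtf2-null and 0.882 in the WT list, so the deeper library was called at lower densities, and 2444 Mtf2-null-only peaks (47.9%) were less dense than any WT-only peak. The median fold enrichment over the control was 8.20 for WT-only and 5.25 for Mtf2-null-only peaks, and the highest scores were 3016 and 239. The false discovery rate (FDR) that MACS took from the swapped control ran the other way, since 29.4% of WT-only peaks and 100% of Mtf2-null-only peaks were at or below 5%. The part of depth and of the control library in these differences was not tested.

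**Figure D3:**
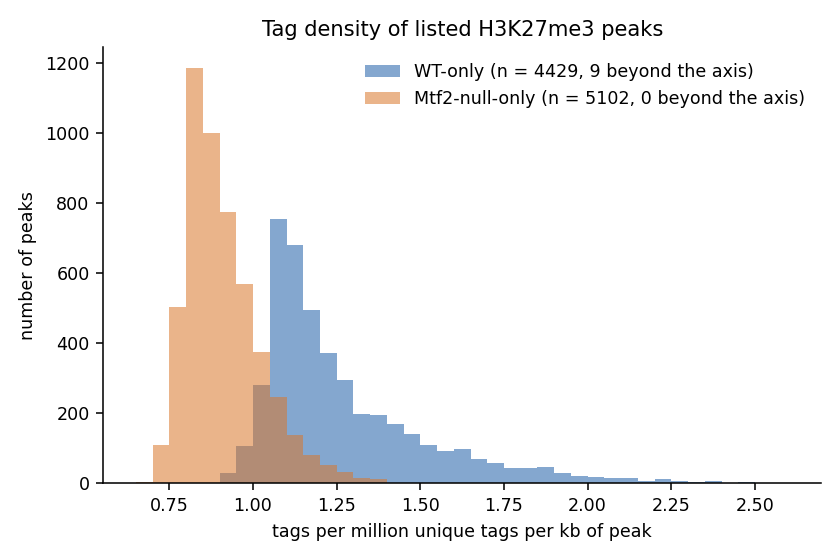
Distribution of tag density (RPKM, tags per kb of peak scaled to the unique tags, x axis) over WT-only and Mtf2-null-only peaks, with 1 H3K27me3 library per genotype. The Mtf2-null-only peaks centre at 0.887 and the WT-only peaks at 1.19, and 97.2% of the former lie below the median of the latter. The legend gives the number of peaks beyond the axis.

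WT-only peaks were of several kinds. The kind with the highest median score, at a TSS and CpG island-like, held 1742 peaks (39.3%) with a median score of 110. CpG-poor peaks at a TSS numbered 485 (11%) with a median score of 61.9. A further 373 CpG island-like peaks (8.42%) lay away from a TSS at a median score of 88.2. The remaining 1829 (41.3%) were CpG-poor and away from a TSS, with a median score of 57.3 and a median FDR of 25.2%. This last kind was close to the calling threshold, and 10.7% of its summits were at 100 copies or more, whereas 0 of the CpG island-like summits of either kind were.

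WT-only peaks also formed clusters. With summits up to 10 kb apart joined, they gave 488 runs of more than 1 peak and 78 runs of at least 4, while Mtf2-null-only peaks gave 187 runs and none of more than 3. The longest runs held 9 peaks. One of these spanned Hlx, a homeobox factor of gut mesenchyme and lymphoid cells, with 347 tags in all, and another Nr2e1, an orphan nuclear receptor of neural stem cells, and its neighbour Ostm1, with 480 tags. The third such run, chr8:126062125-126096986, held 966 tags and no protein-coding gene within 5 kb. The paired forebrain genes Dlx1 and Dlx2 lay in a run of 8 peaks with 510 tags.

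At the level of genes, 2548 of the 21281 autosomal protein-coding genes (12.0%) had a WT peak within 5 kb of a TSS and 341 (1.60%) a Mtf2-null peak. In WT only there were 2517 genes (11.8%), in Mtf2-null only 310 (1.46%) and in both 31 (0.146%). Of the WT-only genes, 79.9% had a CpG island-like TSS, as had 33.2% of the Mtf2-null-only genes and 49.96% of all genes. Counted the other way, 18.9% of genes with such a TSS and 4.75% of genes without one were WT-only, whereas Mtf2-null-only genes made up 0.969% and 1.94%. The peak lay within 1 kb of the TSS at 2046 of the WT-only genes but at 46 of the 310 Mtf2-null-only genes.

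Gene classes were described by counts beside these shares. Transcription factors of embryonic patterning were often marked in WT cells. Of 311 genes in the Hox clusters and the other homeobox, forkhead, Sox and T-box, tissue bHLH and Gata families, 202 (65.0%) were WT-only, 0 were Mtf2-null-only and 1 had a peak in both lists. By family, these were 30 of 39 Hox genes (76.9%, 61.7 to 87.4), 99 of 132 other homeobox genes (75.0%, 67.0 to 81.6), 23 of 40 forkhead genes (57.5%, 42.2 to 71.5), 19 of 32 Sox and T-box genes (59.4%, 42.3 to 74.5) and 26 of 63 bHLH genes (41.3%, 30.0 to 53.6). All families were above the 11.8% found over all genes. In each family the count of 0 Mtf2-null-only genes allows 2.27% or more, above the 1.46% over all genes.

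Among the homeobox genes, Pou3f3 had the strongest peak, with 226 tags in WT, a score of 910 and 18.8-fold enrichment. It was followed by Tlx2, which acts in enteric neurons, with 235 tags and a score of 822, and by Pou3f1, a POU factor of neural and glial cells, with 252 tags and a score of 757. Within the Hox clusters, which lay down the body axis, the strongest was Hoxd8 with 139 tags and a score of 295. The peak of each of these genes was CpG island-like, and no Mtf2-null peak lay within 5 kb of a TSS of any of them.

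The T-box repressor Tbx2 carried 266 tags in WT with a score of 703, and Tbx1, a factor of the pharyngeal arches, 121 tags with a score of 324. Of the forkhead genes, Foxd2 had 219 tags and a score of 551, and Foxc1, required in mesoderm and eye, 214 tags and a score of 545. Among bHLH genes, Hes5, a target of Notch, had 115 tags and a score of 437, and Olig2, which specifies oligodendrocytes and motor neurons, 146 tags and a score of 433. The one bHLH gene with a peak in both lists was the neighbour of Olig2, Olig1, whose WT peak of 38 tags and Mtf2-null peak of 54 tags lay 3.87 kb apart and did not overlap.

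All 5 Gata genes on the autosomes were WT-only. Gata2, a regulator of blood stem and progenitor cells that gives way to Gata1 as red cells mature, had 4 peaks, the strongest with 114 tags and a score of 133. Gata4, a factor of heart and endoderm, had 4 peaks with a top score of 110, Gata3, of T cells, had 3 with a top score of 74.3, and Gata6 had 2 with a top score of 73.0.

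Other regulators of blood lineages were marked in WT cells as well. Of 44 blood transcription factors, 23 (52.3%, 37.9 to 66.2) were WT-only and 0 Mtf2-null-only. The shares over all genes were 11.8% and 1.46%, and the count of 0 allows up to 6.82%. Cebpb and Cebpa, which drive myeloid differentiation, had 95 and 79 tags and scores of 274 and 234. Pax5 and Ebf1, which define B cells, had scores of 198 and 130, and Fli1, an ETS factor of megakaryocytes, a score of 75.7. Prdm16, a regulator of stem cells and brown fat, had the highest score of the list at 355.

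Few erythroid genes were marked. Of 49 genes for globins, heme synthesis, the red cell membrane and their regulators, 0 were Mtf2-null-only. This count of 0 allows up to 6.12%, above the 1.46% over all genes. There were 4 WT-only genes (8.16%, 3.22 to 19.2), and the interval includes the 11.8% over all genes. The 4 were Ank1 and Epb4.9, which encode ankyrin and dematin of the membrane skeleton, Icam4, an adhesion molecule of erythroblasts, and Klf3, a repressor among the Krüppel-like factors. Ank1 had 154 tags and a score of 236 at a CpG island-like TSS, and Klf3 25 tags and a score of 53.1. Icam4 had 172 tags and a score of 331, in a peak with its summit 6.23 kb downstream of a TSS. The same peak was also assigned to the microRNA gene Mir1900. Whether it belongs to Icam4 or to a neighbouring gene was not tested. Markers of other FL cells gave small lists, in which WT-only genes were 2 of 11 hepatocyte markers, 1 of 11 macrophage and myeloid, 3 of 8 megakaryocyte, 3 of 9 lymphoid and 2 of 8 endothelial and stromal markers, with 0 Mtf2-null-only genes in any of them. In marker lists this short a count of 0 allows between 27.3% and 37.5%, so it cannot be told from the 1.46% over all genes. The lists describe where the mark lay and do not measure expression or the purity of the sort.

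Signalling genes showed the same direction. In the Wnt pathway, 0 of 79 genes were Mtf2-null-only, which allows a share of up to 3.797%, above the 1.46% over all genes. The WT-only genes numbered 37 of 79 (46.8%, 36.2 to 57.7). They included ligands such as Wnt3a, with 90 tags and a score of 217, and Wnt4, with 82 tags and a score of 176, the receptor Fzd2, with 70 tags and a score of 187, the secreted inhibitor Notum, with 212 tags and a score of 381, and the nuclear effectors Tcf7, Tcf7l1 and Tcf7l2. Tcf7l2 alone had 5 peaks with a top score of 101.5. Of the Fgf and hedgehog genes 24 of 42 (57.1%) were WT-only, led by Fgf8 with 167 tags and a score of 530, and Smo, the hedgehog signal transducer, had 97 tags and a score of 320. The BMP and TGF-beta genes gave 25 of 67 (37.3%), led by Inhbb, a subunit of activin, with 155 tags and a score of 553, and the inhibitory Smad6, with 245 tags and a score of 551. The Notch genes gave 9 of 20 (45.0%), with Jag2, a ligand, at 124 tags and a score of 229.

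Genes of nerve cells were intermediate. Of 71 axon guidance genes 30 (42.3%) were WT-only, as were 31 of 92 potassium channel genes (33.7%), 24 of 80 other ion channel genes (30.0%) and 27 of 106 neurotransmitter receptor genes (25.5%). Plxnb1, a semaphorin receptor, had 99 tags and a score of 374. The potassium channel Kcng3 had 199 tags and a score of 642, and Hcn2, a pacemaker channel, 225 tags and a score of 547. Mtf2-null-only genes in the same classes included Kcnh8, with 85 tags and a score of 72.8, and Accn5, with 45 tags and a score of 50.8. Such genes were 1 of 92 potassium channel genes (1.09%, 0.192 to 5.90) and 2 of 80 other ion channel genes (2.50%, 0.688 to 8.66). Both intervals include the 1.46% over all genes.

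Genes of cell adhesion and transport stood nearer to the background of 11.8%. WT-only genes were 11 of 48 contactin and neurexin adhesion genes (22.9%), 26 of 135 matrix and integrin genes (19.3%), 11 of 65 cadherin and protocadherin genes (16.9%) and 46 of 339 solute carrier genes (13.6%). They were 32 of 353 Zfp zinc finger genes (9.07%), 11 of 137 chemokine and interleukin genes (8.03%) and 1 of 92 keratin genes (1.09%). The 2 Mtf2-null-only members of the matrix list (1.48%) were Itgad and Mmp7. Those of the interleukin list (1.46%) were Il1f6 and Il3ra, and all had scores from 53.7 to 85.7. Both shares were near the 1.46% over all genes.

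Few housekeeping genes were marked. WT-only genes were 6 of 68 ribosomal protein genes (8.82%, 4.11 to 17.9), 1 of 38 proteasome genes (2.63%, 0.466 to 13.5), 3 of 64 respiratory chain genes (4.69%, 1.61 to 12.9) and 1 of 45 DNA replication genes (2.22%, 0.393 to 11.6). All of these intervals but the last include the 11.8% over all genes. Mtf2-null-only genes were Rps10 and Rps2 (2.94%, 0.810 to 10.1), Psmb8 (2.63%, 0.466 to 13.5), and Ndufb10 and Ndufb6 (3.13%, 0.861 to 10.7), in peaks with 46 to 70 tags. These shares were above the 1.46% over all genes, which lies within each interval. Rps2 and Ndufb10 were counted from 1 and the same peak, with 46 tags and a score of 50.8, so these entries are not independent. Several of these peaks lay nearer to the promoter of another gene. The peak counted for Psmb3, for example, is also that of Pcgf2, with its summit 0.113 kb from a TSS of Pcgf2 and 2.79 kb from one of Psmb3.

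**Figure D4:**
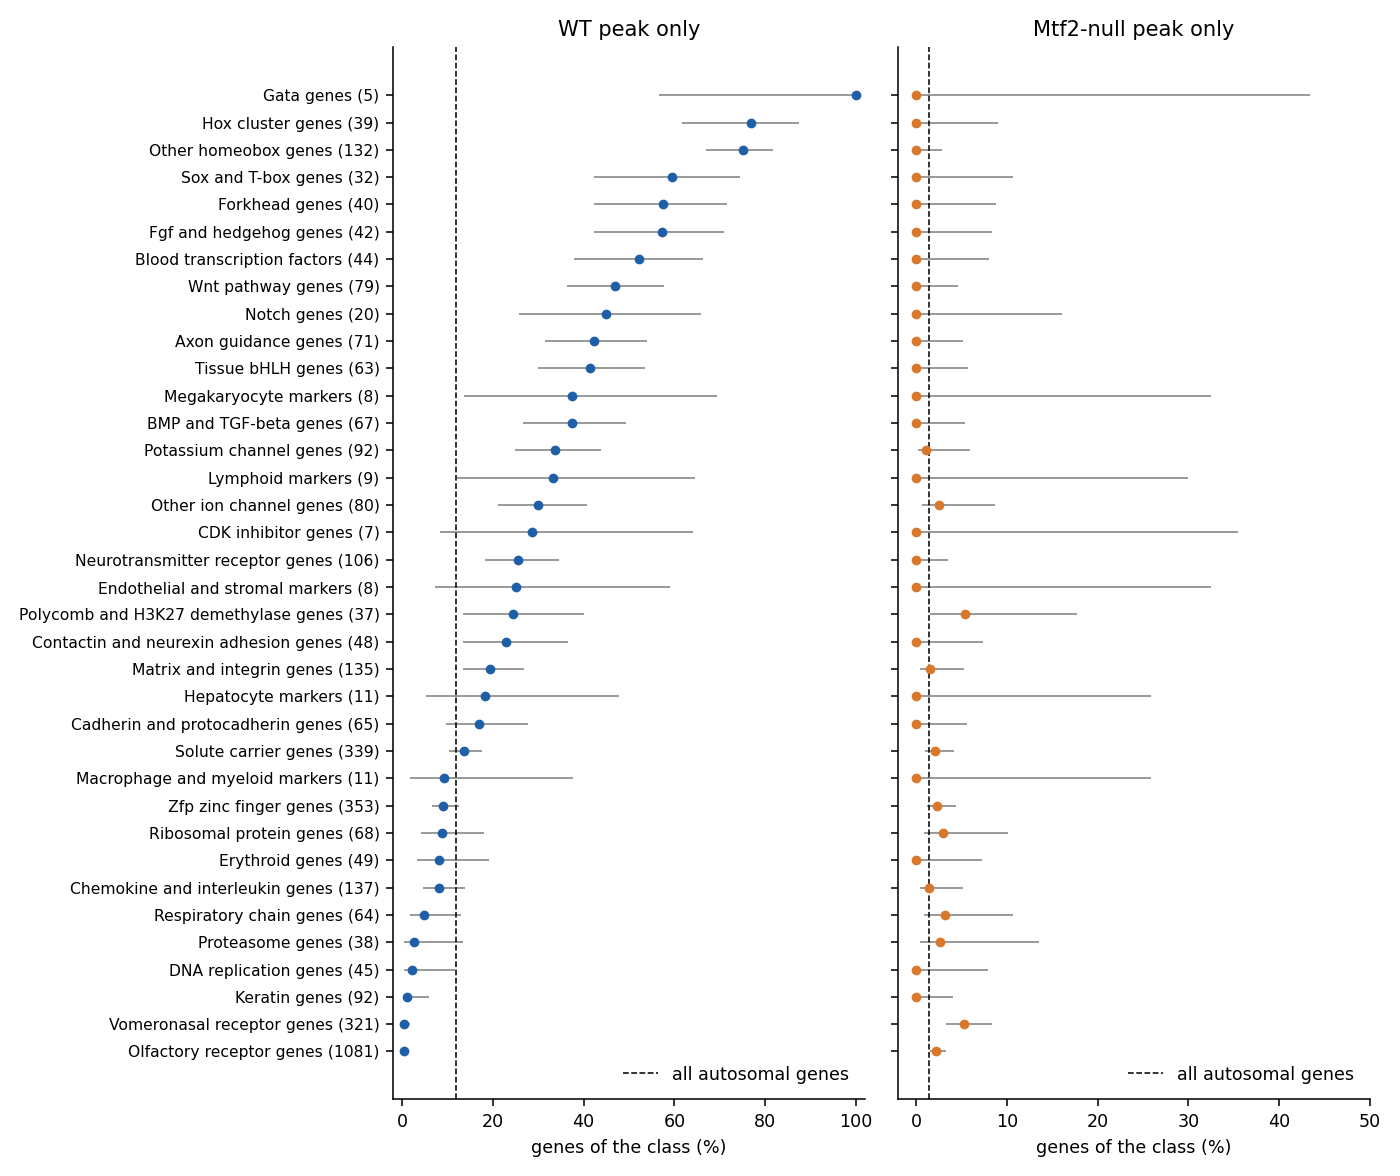
Share of the genes of each class (%, x axis) that had a peak within 5 kb of a TSS in WT only or in Mtf2-null only, with 95% Wilson intervals that cover counting error only, beside the 11.8% and 1.46% found over all 21281 genes. The Gata, Hox and other homeobox genes lie highest for WT-only peaks, at 100%, 76.9% and 75.0%, and the olfactory and vomeronasal receptors are the classes in which Mtf2-null-only genes outnumber WT-only genes.

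The Polycomb genes themselves held peaks of both kinds. Of 37 genes for Polycomb subunits and H3K27 demethylases, 9 (24.3%, 13.4 to 40.1) were WT-only, against 11.8% over all genes. In this class 94.6% of genes had a CpG island-like TSS. Over all genes with such a TSS 18.9% were WT-only, which lies within the interval of the class. Bmi1, a RING finger partner in PRC1, had the strongest at 161 tags, a score of 394 and 16.3-fold enrichment, 0.035 kb upstream of a TSS. The chromodomain genes Cbx7 and Cbx2 had 95 and 43 tags and scores of 140 and 62.5, and Pcgf2, a paralogue of Bmi1, 74 tags and a score of 110. Kdm2b, which binds unmethylated CpG islands, had 33 tags and a score of 67.1. Asxl3, Phc3 and Pcgf1 had scores of 86.0, 53.3 and 50.6. The 2 Mtf2-null-only genes were Ezh2, the catalytic subunit of PRC2, and Scmh1, a PRC1-associated protein. The Ezh2 peak held 174 tags with a score of 60.8 and 3.90-fold enrichment, lay 2.71 kb downstream of a TSS and was CpG-poor, and its summit sequence was at a median of 3346 copies. The Scmh1 peak held 95 tags with a score of 64.5, 4.87 kb downstream of a TSS, at a median of 381 copies. Of 7 cyclin-dependent kinase inhibitor genes 2 were WT-only (28.6%, 8.22 to 64.1, an interval that includes 11.8%), Cdkn1c and Cdkn2a, with 143 and 30 tags and scores of 86.4 and 55.3.

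The largest numbers of Mtf2-null-only genes in any class were those of the olfactory and vomeronasal receptors, and the olfactory receptors were also the largest class. Olfactory receptor genes, expressed in the nose and arranged in large clusters, contributed 24 of 1081 (2.22%, 1.5 to 3.28) beside 3 WT-only genes, and vomeronasal receptor genes 17 of 321 (5.30%, 3.33 to 8.32) beside 1. The share over all genes was 1.46%. By share the olfactory receptors were not the highest. The Polycomb (5.41%), respiratory chain (3.13%), ribosomal protein (2.94%), proteasome (2.63%) and other ion channel (2.50%) classes lay above them, each with 1 or 2 genes. Olfr371 had 305 tags with a score of 159, Olfr711 296 tags with a score of 158, Olfr1257 264 tags with a score of 141 and Olfr769 202 tags with a score of 143. Vmn2r30 held 537 tags in a peak with a score of 160, and Vmn1r143 228 tags with a score of 163. These peaks lay off the TSS, with summits between 1.15 and 6.65 kb from it, and their median words were at 20 to 11110 copies. By the nearest TSS, 231 Mtf2-null-only peaks (4.53%) and 19 WT-only peaks (0.429%) lay at such a receptor gene. These receptors were 1402 of the 21281 autosomal protein-coding genes, a larger share than that of either group of peaks.

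Zinc finger genes of the Zfp series contributed 8 of 353 (2.27%, 1.15 to 4.41) and solute carrier genes 7 of 339 (2.06%). The Zfp share was thus as high as that of the olfactory receptors, and the intervals of both the Zfp and the solute carrier share include the 1.46% over all genes. Examples were Zfp868, with 198 tags and a score of 73.4, and Slc22a30, with 77 tags and a score of 75.8. The highest scores of all Mtf2-null-only genes were those of Rps2-ps6, at 169 with 247 tags, and of Vmn1r143. At the strongest peak of the 310 genes the median word was at 91 copies, with 151 genes (48.7%) at 100 copies or more, whereas 2424 of the 2517 WT-only genes (96.3%) were at 1 copy.

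Introns that held Mtf2-null-only peaks belonged to longer genes, by the median, than introns that held WT-only peaks. The median host gene was 153 kb long, against 86.4 kb for the host genes of WT-only intronic peaks. Magi2, which encodes a synaptic scaffold protein, held 8 Mtf2-null-only peaks over 1478 kb, and Csmd1, Dok6, Gpc5 and Sntg1 held 5 each. Very long hosts occurred among WT-only peaks too. Gm20388, of 4435 kb, held 28 WT-only and 4 Mtf2-null-only intronic peaks, and Fgfr2, of 3009 kb, held 6 WT-only ones. The host length of random intronic positions was not computed.

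Copy number divided the Mtf2-null-only peaks further. The 3348 peaks at 100 copies or more had a median length of 1606.5 bp and a median density of 0.920, and 15 of them (0.448%) were at a TSS. The 531 peaks at 1 copy were shorter, with a median length of 832 bp, and sparser, with a median density of 0.816, and 17 (3.20%) were at a TSS. Their median score was 55.97, close to the threshold of 50, and their median GC content of 40.3% was not higher than that of the genome windows. Of these 531 peaks 0 were CpG island-like, and this count allows at most 0.565%. Restricted to summits at 1 copy in both lists, 3898 WT and 547 Mtf2-null peaks remained, a ratio of 0.140, and 16 pairs were shared.

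Among the 27 shared pairs, 19 WT summits lay over 10 kb from a TSS, and the closest, at C1qtnf2, lay 1.87 kb from one. None overlapped the 1 kb around a TSS and none was CpG island-like, and for 27 pairs a count of 0 allows at most 11.1%. By the WT summit, 19 were intergenic and 5 intronic. The Mtf2-null tag density was lower than that of WT in 27 of 27 pairs, at 0.582 to 0.859 of it with a median of 0.720. Scaled to the unique tags alone, the tag number was lower in 19 of 27. As the deeper list was called at lower densities throughout, the part of depth in this difference was not tested.

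The strongest pair, chr7:51730493-51734390 near Josd2, held 158 tags in WT with a score of 319 and 9.53-fold enrichment. In Mtf2-null cells it held 166 tags with a score of 116 and 3.95-fold enrichment. The pair upstream of Otx2, chr14:49295910-49297105, held 44 tags with a score of 111 in WT and 57 tags with a score of 53.2 in Mtf2-null cells, with 22.5-fold and 9.31-fold enrichment. The other pairs were weaker on at least 1 side. In all, 18 pairs had a WT score under 60 and 15 a Mtf2-null score under 60, and 19 had a WT FDR above 20%.

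**Figure D5:**
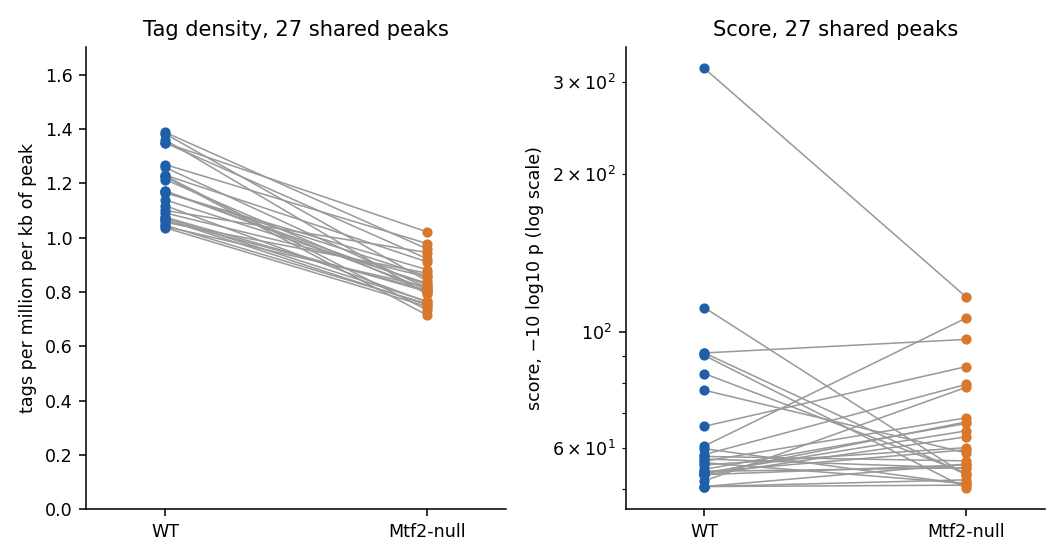
Tag density of the 27 shared peak pairs (RPKM, tags per kb of peak scaled to the unique tags), with WT and Mtf2-null values joined for each pair. All 27 lines fall from WT to Mtf2-null, by a median ratio of 0.720. The right panel joins the scores of each pair (log scale), which moved in both directions.

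Of the 31 genes with a peak in both lists, 6 had the same region in both, namely C1qtnf2, Gm853, Josd2, Pank3, Tmem88b and Tspan9. At the other 25 genes the 2 peaks did not overlap and lay a median of 6.10 kb apart, up to 123.4 kb at Cdc42bpa, a kinase gene with several start sites. Etv4, an ETS factor downstream of Fgf signals, had a WT peak of 87 tags and a score of 221 and, 3.76 kb away, a Mtf2-null peak of 52 tags and a score of 72.4. Dennd5b had a WT peak of 109 tags and a score of 231 and a Mtf2-null peak of 47 tags and a score of 59.2, 87.5 kb apart.

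The other 4 lists of the series were compared with the groups by overlap. WT pro-erythroblast H3K27me3 peaks overlapped 281 WT-only peaks (6.34% of WT-only peaks and 6.13% of that list) and 43 Mtf2-null-only peaks (0.843% and 0.895%), and 0 of the 27 shared peaks of WT. Mtf2-null pro-erythroblast H3K27me3 peaks overlapped 76 WT-only peaks (1.72%, and 5.48% of that list) and 32 Mtf2-null-only peaks (0.627% and 2.63%). They overlapped 5 of the 27 shared peaks (18.5%, 8.18 to 36.7), a larger share than in either of the other groups. Mtf2 peaks of WT erythroblasts overlapped 54 WT-only peaks (1.22%, and 1.13% of the Mtf2 list) and 93 Mtf2-null-only peaks (1.82% and 1.95%). Mtf2 peaks of WT pro-erythroblasts overlapped 80 WT-only peaks (1.81%, and 0.357% of the Mtf2 list) and 678 Mtf2-null-only peaks (13.3% and 2.70%). Of the Mtf2-null-only peaks at 100 copies or more 18.4% met such a pro-erythroblast Mtf2 peak, and of those at 1 copy 0.942%.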

How the data were processed

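H3K27me3 ChIP-seq of CD71+Ter119high FL cells was used, with 1 library per genotype and an IgG library for each. Per the labels and the submitters' processing notes, reads were aligned with Bowtie2 2.2.3 to mm9 and peaks called with MACS 1.3.7. The authors deposited MACS peak lists, which give for each peak a tag count, a score (10 times the negative log10 of the p-value), a fold enrichment over the control (a ratio) and an FDR in percent. Tag totals came from the file headers. The study's methods state replicates of 2. Whether these were pooled is not given in the sources used here. The opening of the design text speaks of H3K4me3, but the labels and the antibody are those of H3K27me3.

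Peaks were compared by at least 1 shared base. TSS came from GENCODE M1 on NCBIM37, with 67112 distinct autosomal protein-coding TSS and 21281 genes. Base composition was read from the 1 kb at each summit, and copies of 24-base words from 300 bases. The members, the 36 gene classes and the alternatives were chosen with earlier results of these data known, and the copy count was added after the sequences had been seen. Named genes were up to 4 per class with the highest WT score, up to 3 with the highest Mtf2-null score, all with a peak in both genotypes, the 10 highest Mtf2-null-only genes, and all Polycomb, erythroid and marker genes with a peak. Genes with the most peaks, members of runs, intron hosts and noncoding genes were named in addition, after their values were seen. Single members of some classes are not reported here. Sequences were from the highest-scoring peaks of each group, leaving out chromosome 18 and the peak at March9, which overlaps an annotated UTR. For WT-only peaks the choice was limited to CpG island-like peaks at a TSS. Python 3.11.15, numpy 2.4.6, pandas 2.3.3 and pysam 0.24.0 were used, and overlap, placement, base composition and word counts were tested on simulated data. No test between genotypes was possible with 1 library each, so shares are given with 95% Wilson intervals. Unique tags numbered 30054186 (WT) and 67169672 (Mtf2-null) for H3K27me3 and 12345800 and 20646036 for IgG. MicroRNA sequences are from RefSeq (GRCm38.p6).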

Additional observations from a re-analysis of the deposited data

Results flagged for a closer look

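The sex chromosomes were left out of the comparison above, and the lists differed there more than on any autosome. The Mtf2-null list held 654 peaks on chromosome X (3.92 per Mb) and the WT list 34 (0.204 per Mb), a ratio of 19.2 against 0.468 to 2.01 on the autosomes. On chromosome Y the Mtf2-null list held 8 peaks and the WT list 0. Of the X peaks, 447 of the Mtf2-null list (68.3%) and 7 of the WT list (20.6%) had a median word at 100 copies or more. The part of sequence copy number and of depth in these counts was not tested.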

How the results depend on the processing

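The 10 summary values were recomputed under each alternative, which gave 83 alternative values: 44 stayed within the spread allowed for them, 36 moved and 3 reversed. The ratio of Mtf2-null to WT peaks, 1.15, fell below 1 with a fold enrichment of at least 8 (0.259), a score of at least 100 (0.328) or single-copy summits (0.140), and rose to 3.93 at an FDR of at most 5%. The single-copy alternative was chosen after seeing the data. The cause of these moves was not tested.

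The share of WT peaks without a Mtf2-null peak was 99.8466% at that FDR, 99.8245% at that fold, 99.924% at that score and 99.5895% at single-copy summits. The corresponding Mtf2-null share was 99.961% by FDR, 99.7685% by score and 97.075% at single-copy summits. WT-only peaks at a TSS made up 81.0% by FDR, 80.9% by score, 57.5% by fold, 56.6% at single-copy summits and 56.4% with 2 kb on either side. Mtf2-null-only peaks at a TSS made up 2.195% with 2 kb, 0.171% by fold, 0.232% by score and 3.20% at single-copy summits. CpG island-like WT-only peaks made up 85.3% by FDR, 85.2% by score, 58.2% by fold, 53.7% at single-copy summits and 42.3% with limits of 55% GC and a ratio of 0.65.

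WT-only genes numbered 1205 by FDR, 1581 by fold and 1227 by score. Mtf2-null-only genes numbered 51 with 1 kb windows, 19 by fold, 22 by score, 63 at single-copy summits and 849 with the gene body included. Genes with both numbered 2 with 1 kb windows, 11 by FDR, 0 by fold, 1 by score, 8 at single-copy summits and 222 with the gene body.

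No paired analysis was possible because each genotype had 1 H3K27me3 library. For the same reason no replicate was left out in turn. The WT library held 30054186 unique tags and the Mtf2-null library 67169672, and the part of this difference in the counts was not tested.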

Other observations

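Noncoding genes were assigned to peaks as the coding ones were, within 5 kb of a TSS, so a peak need not overlap the gene. Of 1231 autosomal lincRNA genes, 185 (15.03%) were WT-only, 14 (1.14%) Mtf2-null-only and 2 in both. Of all 1461 microRNA genes, 74 (5.07%) were WT-only, 23 (1.57%) Mtf2-null-only and 1 in both, and of the 462 with a Mir symbol, 36 (7.79%) were WT-only and 5 (1.08%) Mtf2-null-only. Over all protein-coding genes the shares were 11.8% and 1.46%. The mature sequences below are shown because neighbouring microRNAs assigned to 1 WT-only peak share or nearly share their seed, bases 2 to 8 from the 5′ end, in capitals.
miR-132-3p: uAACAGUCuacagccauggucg
miR-212-3p: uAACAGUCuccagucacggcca
miR-181c-5p: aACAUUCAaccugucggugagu
miR-181d-5p: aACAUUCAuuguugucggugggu
miR-29a-3p: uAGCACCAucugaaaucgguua
miR-29b-3p: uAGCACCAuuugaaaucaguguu
miR-96-5p: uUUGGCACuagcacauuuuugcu
miR-182-5p: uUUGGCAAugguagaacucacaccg

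The peak assigned to Mir132 and Mir212, chr11:74981520-74983514, was the strongest of these, with 154 tags, a score of 643 and 15.2-fold enrichment, and it is also the top peak of Hic1, a transcriptional repressor and tumour suppressor with 5 peaks. The peak assigned to Mir96, Mir182 and Mir183, a cluster of sensory cells, held 373 tags with a score of 237. Mir181c and Mir181d shared a peak of 79 tags with a score of 102.3, and Mir29a and Mir29b-1 a CpG-poor peak of 28 tags with a score of 67.0. The seed AGGUAGU is shared by miR-196a-5p and miR-196b-5p, which lie in separate Hox clusters, at Mir196a-2 and Mir196b, and were assigned to WT-only peaks of 39 and 51 tags with scores of 85.9 and 83.6. The seed GGCAGUG is shared by miR-34b-5p, with Mir34b assigned to a peak of 56 tags and a score of 85.0, and by miR-449a-5p and miR-449c-5p, assigned to a peak of 23 tags and a score of 58.0. Mir193, Mir124a-3, Mir124a-1, Mir1901, Mir449b and Mir709 were WT-only as well.

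Beside Unc45b, March9 and Clcf1, the strongest WT-only peaks outside the named classes were those of Zswim5, with 176 tags and a score of 857, and Rhbdf1, an inactive rhomboid protein, with 193 tags and a score of 835. A WT-only peak of 236 tags and a score of 783 was intergenic, 30.7 kb downstream of the nearest TSS, that of Il17ra. The peak assigned to Comp, a cartilage matrix protein, held 246 tags with a score of 775 in an intron.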
